A study of Mus musculus with 2 samples.

Results

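The GIMAP genes encode GTPases of immunity-associated proteins, a family that mice express mainly in lymphocytes. All 8 members on the arrays (Gimap1, Gimap3, Gimap4, Gimap5, Gimap6, Gimap7, Gimap8 and Gimap9) gave lower signal in bone marrow cells cultured with the herbal drug ninjin'yoeito (NYT) than in untreated cells, with a median of 6.10-fold. The family was selected on the processed intensities of these same 2 arrays, NYT against control, with results known, and its probes are those that carry 1 of these symbols as gene name in the scanner files. These were 10 probes for 8 genes, out of 39429 probes for 30163 named genes. The values below therefore describe these 2 arrays and carry no test.

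Both cultures held bone marrow mononuclear cells, flushed from the femurs of C57BL/6 mice (strain C57/Bl6J in the sample labels) aged 2 to 4 months into medium with 2% fetal bovine serum. One culture was given NYT and the other was the untreated negative control. Both were collected at day 11 and neither carried a genetic change. The labels state neither the dose of NYT nor how many mice gave cells, nor whether the cultures shared donors. Each culture was measured on 1 one-colour array, so there was no replicate check and no p-value.

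GIMAP proteins share a GTP-binding domain, and most are held on membranes of the endoplasmic reticulum, Golgi apparatus, lysosomes or mitochondria, or on lipid droplets. They are known for keeping resting lymphocytes alive. Loss of Gimap5 removes many peripheral T cells in mice and rats, and Gimap1 is needed for mature T and B cells. Some members are also made by endothelial cells and blood stem cells.

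The probes are shown first because each value below is the signal of 1 stretch of messenger RNA. Whole sequences are given for 3 probes that hold a reading frame without a stop and start at base 518 (Gimap9), 500 (Gimap4) or 904 (Gimap7) of their transcript. Capitals mark the longest run that each shares with a probe of another Gimap gene. The positions are those of the files, on mouse build mm9.
Gimap9 (A_51_P377948, chr6:48627839-48627898, plus strand): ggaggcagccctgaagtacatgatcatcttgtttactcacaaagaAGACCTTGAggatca
Gimap4 (A_55_P1976387, chr6:48640752-48640811, plus strand): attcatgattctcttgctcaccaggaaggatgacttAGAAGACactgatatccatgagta
Gimap7 (A_51_P448147, chr6:48674271-48674330, plus strand): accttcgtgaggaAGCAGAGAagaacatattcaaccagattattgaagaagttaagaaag

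No Gimap probe shared more than 9 bases in a row with a probe of another member. The longest run shared with a probe of any other gene on the array was 15 bases of 60, so the family is not measured here through copies of 1 probe sequence. Probes were compared with probes only, so matches to the transcripts of other genes were not checked. The GC content of the 10 probes ran from 35% to 45%. The first 30 bases are shown for the other Gimap4 probes and for the Gimap1 probe. Those Gimap4 probes had the largest and smallest differences of their gene, and Gimap1 had the smallest of the family.
Gimap4, start 1060 in the transcript (A_55_P1976376, chr6:48641312-48641371, plus strand): gactagaccttatttctattttctgcattt
Gimap4, start 1565 (A_55_P2147831, chr6:48641817-48641876, plus strand): agatctcacaagtcaaataatccaggttga
Gimap1, start 1119 (A_51_P507509, chr6:48693409-48693468, plus strand): gctcagagctttaatgattcacagtgcagt

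Levels are given as processed intensity with the error that the scanner software assigns to the spot. Differences are log2, NYT minus control, after each array was scaled to its 75th percentile. The 75th percentile was lower on the NYT array, 728 against 1475, so a fold without scaling is larger. The spike-in RNAs did not share this shift. Before scaling, 7 of the 8 well above background on both arrays lay between -0.12 and 0.24, and the median of the 8 was 0.16. What lowered the percentile was not tested. Among 16996 genes measured on both arrays the median difference was 0.29 as scaled and -0.73 without scaling. Spot noise, from 247 probes printed 10 times, gave a median SD of 0.053 for a difference, and the scanner errors of the Gimap probes combined to between 0.20 and 0.35. Neither error covers differences between cultures, between hybridisations or between probes of a gene.

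Gimap5 and Gimap3 are close relatives known to protect lymphocytes from cell death. Gimap5 lies on lysosomes and related vesicles. Gimap5 had an intensity of 1785 ± 179 in the untreated culture and 175 ± 18.1 in the NYT culture. Its difference was -2.34, or 5.05-fold lower as scaled and 10.2-fold without scaling. Gimap3 had an intensity of 9531 ± 953 in the untreated culture and 733 ± 73.4 in the NYT culture. Its difference was -2.68, or 6.42-fold lower as scaled. The differences of the pair were 0.35 apart, against a scanner error of 0.29 for that gap, which leaves out differences between probes. The Gimap5 probe lies at chr6:48703501-48703560 on the plus strand and the Gimap3 probe at chr6:48714463-48714522 on the minus strand (mm9). In a bulk culture, fewer cells of a type and less RNA per cell cannot be told apart, and this holds for every value here.

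Gimap1, which sits on the Golgi apparatus and supports the development and survival of T and B cells, had the smallest difference of the family. Its intensity was 4724 ± 472 in the untreated culture and 810 ± 81.1 in the NYT culture. The difference was -1.53, or 2.88-fold lower. It stood 0.79 above the next member, Gimap8, which is more than the scanner error of that gap (0.29). That error leaves out differences between probes, and the probes of Gimap4 alone spanned 1.17, more than this gap.

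Gimap4, which speeds the death of T cells, had the largest difference by its brightest probe; by the mean over its probes Gimap7 had the largest. It was measured by 3 probes that lie in 1 stretch without an intron between them, since their spacing of 560 and 505 bases was the same in the genome and in the transcript. The brightest probe, at start 1565, had an intensity of 5724 ± 572 in the untreated culture and 296 ± 29.9 in the NYT culture, a difference of -3.25 or 9.54-fold. The probe at start 500 read 651 ± 65.3 and 50.4 ± 6.45, a difference of -2.67. The probe at start 1060 read 933 ± 93.4 and 108 ± 11.6, a difference of -2.09. Between the last 2 probes along the transcript, starts 1060 and 1565, the difference changed by 1.17 against a scanner error of 0.29, so probes of this gene disagreed in size though not in direction. Their mean was -2.67, close to the median of the family. With normexp background correction the probes at starts 500, 1060 and 1565 stood at -1.65, -1.59 and -3.01.

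Gimap6, which takes part in autophagy through a protein of the GABARAP family, had an intensity of 7903 ± 790 in the untreated culture and 673 ± 67.4 in the NYT culture. Its difference was -2.54, or 5.80-fold lower, and its probe lies at chr6:48651666-48651725 on the minus strand (mm9). Gimap8, the longest member, which carries several GTPase domains, read 2988 ± 299 and 297 ± 29.96. Its difference was -2.31, or 4.97-fold lower, and its probe lies at chr6:48610775-48610834 on the plus strand (mm9).

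Gimap7, whose human counterpart activates GTP hydrolysis in other family members, had an intensity of 355 ± 35.9 without the drug and 21.5 ± 4.67 with it. Its difference was -3.03, or 8.14-fold lower. Gimap9 read 790 ± 79.2 and 55.7 ± 6.96, a difference of -2.81 or 7.01-fold. On the NYT array the software did not locate the Gimap9 spot by its outline, although the signal was called well above background. As for the dimmer Gimap4 probes, the value depends on how background is treated: with normexp background correction the differences were -1.30 for Gimap7 and -1.83 for Gimap9, and Gimap7 rather than Gimap1 then had the smallest difference.

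All 10 probes were well above background on both arrays and none was marked as an outlier, so every member passed the filter on dim probes. All 8 genes were lower by at least 2-fold with NYT, where 13.4% of 19421 genes detected on at least 1 array were. At 3-fold and at 4-fold 7 of 8 were lower, with Gimap1 the exception, where 8.71% and 6.52% of detected genes were. Nothing is read from these counts, since the members were taken from this same comparison. Ordered from the largest difference to the smallest, the genes ran Gimap4, Gimap7, Gimap9, Gimap3, Gimap6, Gimap5, Gimap8 and Gimap1. Each gap between neighbours was within the scanner error of the gap, except the last. The last gap, 0.79, was smaller than the span of the Gimap4 probes, 1.17, so it does not set Gimap1 apart. Of all genes measured on both arrays, 2.36% had a difference as low as that of Gimap4 and 7.16% as low as that of Gimap1.

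**Figure D1:**
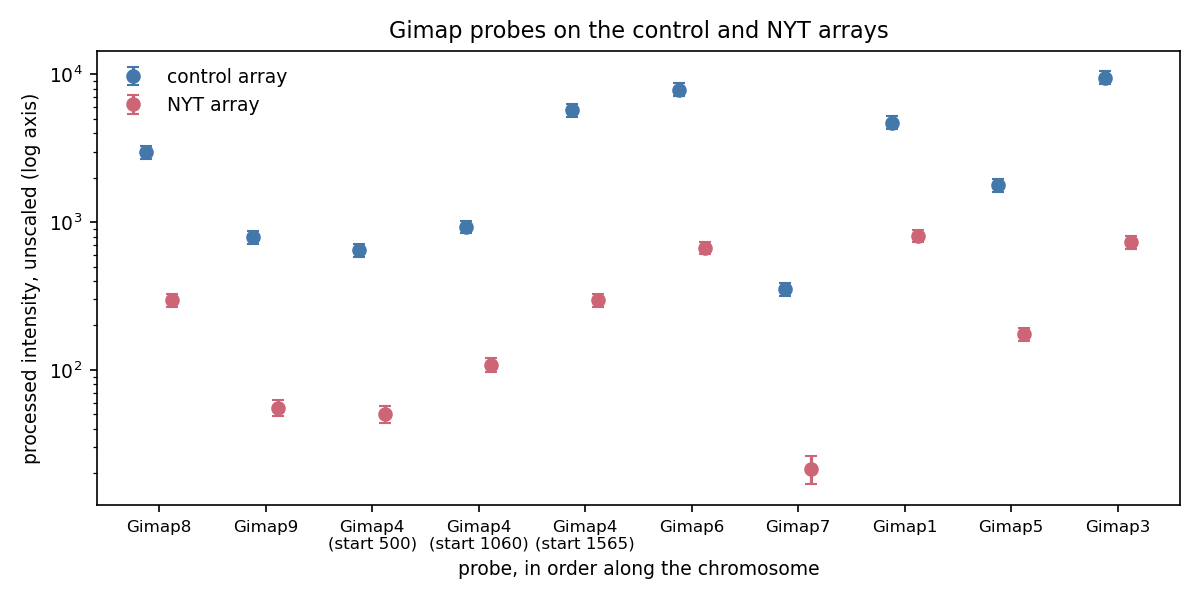
Processed intensity (log axis, unscaled) of the 10 Gimap probes on the control array (blue) and the NYT array (red), in order along the chromosome; bars are the scanner software's error of each spot and cover no difference between cultures. Each probe is lower on the NYT array, from 5.83-fold for Gimap1 to 19.3-fold for the Gimap4 probe at start 1565 before scaling.

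The members share a place in the genome that the choice by name did not use. Their probes lie within 104 kb of chromosome 6, from 48610775 to 48714522 (mm9), in the order Gimap8, Gimap9, Gimap4, Gimap6, Gimap7, Gimap1, Gimap5 and Gimap3. Gimap6 and Gimap3 are read from the minus strand and the others from the plus strand. Within 500 kb of either end the arrays held 44 probes in all, of which 33 were well above background on both arrays.

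There were 2 other probes between the members. One, named only by an Ensembl transcript (ENSMUST00000155906) and read from the minus strand between Gimap7 and Gimap1, read 709 untreated and 56.5 with NYT, a difference of -2.63. The other, A130009E19Rik, was below that detection level on both arrays. Just beyond Gimap3, Tmem176b and Tmem176a, which encode membrane channel-like proteins found in myeloid cells and some lymphocytes, differed by -3.51 (and -3.30 by another probe) and -3.84. Tmem176b read 42831 untreated and 1851 with NYT, and Tmem176a read 3964 and 137.

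The rest of the region held values on both sides of 0. Beyond Gimap8, the 11 probes measured on both arrays had a median of -0.09, with Rarres2, which encodes the chemoattractant chemerin, at -1.44 and Krba1 at -1.13. Repin1, a zinc finger protein gene, stood at 1.67. Beyond Gimap3, 11 measured probes had a median of 0.08 with the 3 of Tmem176b and Tmem176a included, and the other 8 had a median of 0.65, or -0.37 without scaling. Among these, Gpnmb (1.65), Doxl2 (1.52) and Igf2bp3 (1.30) were at least 2-fold higher as scaled. Without scaling these 3 stood at 0.63, 0.50 and 0.28 and Repin1 at 0.66, so none was 2-fold higher. Zfp467, with 4 probes, lay between -0.28 and 0.39.

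**Figure D2:**
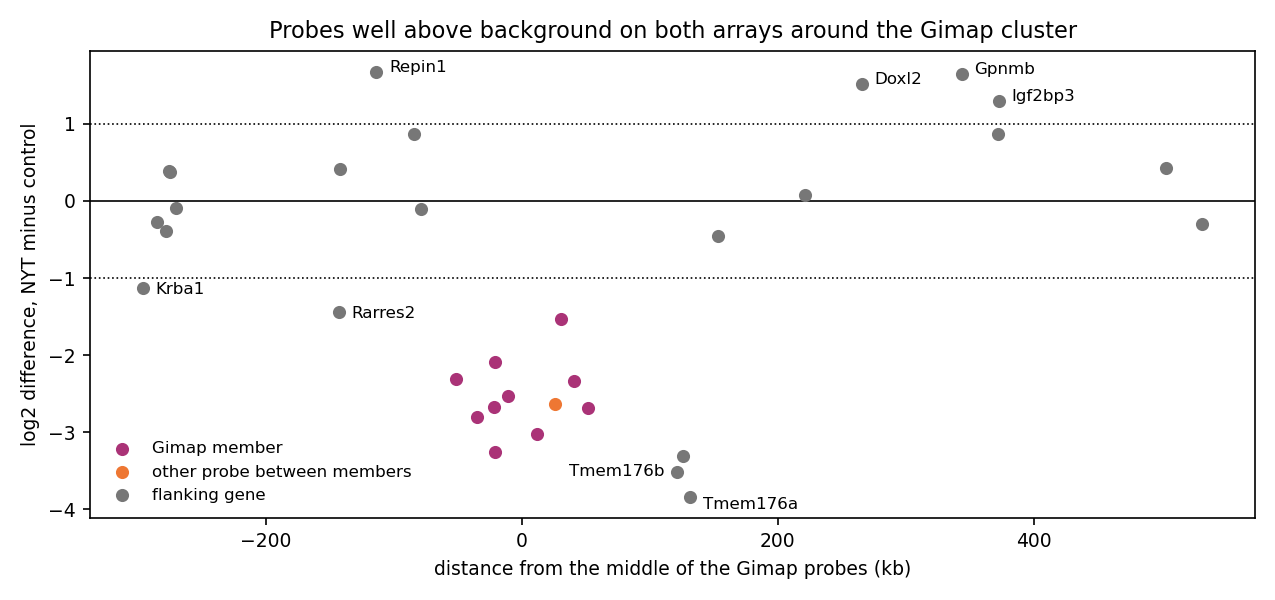
Log2 difference, NYT minus control, of the 33 probes well above background on both arrays, against distance from the middle of the Gimap probes in kb; dotted lines mark 2-fold. The Gimap probes, the unnamed probe between them and Tmem176a and Tmem176b lie below -1.5, and most other probes of the region lie between -1 and 1.

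The starts of the genes were compared because the members were lower together. RefSeq promoters (GRCm38.p6, 250 bases before to 50 after the start) were found for all 8 members, with 9 entries since Gimap8 has 2. The letters GGAAG, the core of sites for ETS factors, were searched on both strands (the other strand reads CTTCC). They occurred in all 9 entries, and in 71.4% of 32851 mouse promoters of the same length. The RUNX letters TGTGGT occurred in the promoters of Gimap1, Gimap4 and Gimap7 (16.8% of all promoters) and the TCF/LEF letters CTTTGA in those of Gimap4 and Gimap7 (16.0%). No 2 matches of different motifs overlapped. These matches describe the letters only, and ETS cores are common in promoters at large. The 80 bases before the start are shown for 4 members with a GGAAG or CTTCC match there, in capitals, as examples of where the match falls.
Gimap4 (chr6:48684498-48684577, plus strand): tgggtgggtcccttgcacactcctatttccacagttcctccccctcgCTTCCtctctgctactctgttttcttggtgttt
Gimap5 (chr6:48746117-48746196, plus strand): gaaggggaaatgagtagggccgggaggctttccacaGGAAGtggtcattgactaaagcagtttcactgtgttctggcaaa
Gimap6 (chr6:48708245-48708324, minus strand): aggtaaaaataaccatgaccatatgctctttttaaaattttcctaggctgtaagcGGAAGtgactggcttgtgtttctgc
Gimap9 (chr6:48676055-48676134, plus strand): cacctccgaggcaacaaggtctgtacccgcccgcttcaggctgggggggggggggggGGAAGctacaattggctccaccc

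Lists of marker genes were compared for cells that can make GIMAP proteins and for other cells of the culture. They were read against 13.4% of detected genes being at least 2-fold lower and 11.4% at least 2-fold higher. A gene detected on the control array alone was given a bound, its control signal against the lowest signal well above background on the NYT array, or its own if higher. Of 25 T cell genes, 21 were lower by at least 2-fold with NYT, 9 of them by a bound. The 16 measured on both arrays had a median of -2.49, which leaves out the 9 genes that have only a bound. With no filter on dim probes the median of the list was -3.40, and that of the Gimap genes was -2.61 with or without the filter. Thy1, a surface protein of T cells, differed by -5.10, and Cd3d, a chain of the T cell receptor complex, by -4.93. Lef1, a transcription factor of immature T cells, stood at -4.60. Txk, a T cell kinase, was at least 39.2-fold lower and Tcf7, of the same TCF/LEF family as Lef1, at least 22.2-fold lower.

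T cell markers were not all lower to the same degree. Cd28, a costimulatory receptor, stood at 1.93 and Il7r, the receptor for interleukin 7, at 1.45, and Cd3e and Cd4 at -0.72 and -0.76. The summed scaled level of the 25 genes, in units of each array's 75th percentile, was 50.2 untreated and 36.9 with NYT. The same sum over the Gimap genes was 22.9 and 4.20. Most of the T cell sum with NYT came from Il7r and Cd28, so it understates the fall of the other T cell genes. Before scaling, these 2 read 11987 and 7729 of 26851 with NYT, against 8880 and 4107 of 74109 untreated. Cd8a and Cd8b1, which define cytotoxic T cells, were not well above background on the NYT array, and neither were Cd247, Txk, Tcf7, Bcl11b, Sh2d1a, Themis and Ubash3a. Without scaling, 23 of 25 were lower and neither Cd28 nor Il7r was 2-fold higher. How far the number of T cells bears on the Gimap values was not tested.

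Natural killer cell genes were lower as well, in 14 of 15. Il2rb, a receptor chain for interleukins 2 and 15, differed by -5.42 and Ctsw, a protease of cytotoxic cells, by -5.02. Klrd1, a receptor of natural killer cells, was at least 103-fold lower and the chemokine Xcl1 at least 56.7-fold lower. Nkg7, a granule protein, stood at -1.30 by its brightest probe and -5.39 by another, and Prf1, which encodes perforin, at -0.43. On the NYT array 11 of 15 were not well above background. Every Gimap gene was, but Gimap7 read only 21.5 there and the Gimap9 spot was not located by its outline. The median of the 4 genes measured on both arrays was -3.16, and with no filter on dim probes the median of the list was -5.42. The summed level of the list was 22.4 untreated and 3.44 with NYT. Most of the NYT sum came from Nkg7 by its brightest probe, 2168 of 2505 before scaling.

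B cell genes, in contrast, were mostly within 2-fold. Of 18, 4 were lower and none higher, with a median of -0.28 over 17 measured genes. Vpreb3, which binds immunoglobulin heavy chains in B cell precursors, differed by -4.34, Ebf1, a factor of B cell identity, by -1.05, and Cr2, a complement receptor of mature B cells, by -1.02 (-0.75 by another probe). Igll1, a chain of the pre-B cell receptor, was at least 11.2-fold lower, and Cd22, an inhibitory receptor of B cells, stood at -0.72. The summed level was 68.8 untreated and 61.2 with NYT. This list depended on scaling: 13 of 18 were lower without it, 15 with spike-in scaling and 2 with quantile normalization.

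Endothelial genes were detected for 14 of 17 markers, of which 8 were lower and none higher. The median over 9 genes measured on both arrays was -1.11. Stab2, a scavenger receptor of sinusoids, differed by -3.57, Flt1, a receptor for VEGF, by -3.53, and Pecam1, an adhesion protein shared with platelets and leukocytes, by -1.88. Vwf, the clotting protein that platelets also store, stood at -3.17 by its brightest probe and -0.48 by another. Kdr, the main VEGF receptor of endothelium, stood at 0.98 (0.04 by another probe), and Plvap, a protein of endothelial pores, at -1.07 (0.63 by another probe). Tie1 and Ptprb, which are more restricted to endothelium, were at least 11.7-fold and 4.38-fold lower, and Cldn5, Sox17 and Sox18 were below the detection level on both arrays. Cdh5, Tek and Emcn were also detected on the control array alone. Cdh5 and Tek had bounds of only 1.51-fold and 1.07-fold and Emcn had no bound, so none of them was counted as lower. Egfl7, Esam and Eng, measured on both arrays, stood at -1.11, -0.92 and -0.17. The summed level was 47.3 untreated and 15.5 with NYT. Most of the untreated sum came from Vwf by its brightest probe. Before scaling, Vwf read 52582 of 69805 untreated and 2882 of 11278 with NYT, so the fall of the sum rests largely on this gene. With normexp background correction 5 genes were lower, and without scaling or with spike-in scaling 12 were.

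Stem and progenitor genes were lower in 12 of 14 detected genes and higher in 1, with a median of -2.62 over 13 measured on both arrays. Gata2, a factor of early progenitors and mast cells, differed by -5.18. Angpt1, a ligand of the Tie2 receptor, stood at -4.06 and Slamf1, a stem cell surface marker, at -3.96. Erg was at least 2.46-fold lower, and Mecom was below the detection level on both arrays. The summed level was 55.4 untreated and 33.9 with NYT. Most of the NYT sum came from Procr, the 1 higher gene, which stood at 3.18. Before scaling, Procr read 4144 of 81684 untreated and 18488 of 24659 with NYT, so the sum understates the fall of the other genes.

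Macrophage genes were all measured on both arrays, with 7 of 18 lower and 6 higher. C1qa, C1qb and C1qc, the subunits of a complement protein that tissue macrophages make, differed by -5.21, -3.74 and -3.58, and Siglec1, an adhesion receptor, by -2.69 (1.28 by another probe). The 6 higher genes as scaled were Gpnmb, a membrane glycoprotein, at 1.65, Trem2, a lipid receptor, at 1.63, the lysosomal proteases Ctsb and Ctsd at 1.34 and 1.22, the lysosomal membrane protein Cd68 at 1.18, and Lgals3, a galectin, at 1.09. None was higher by 2-fold under quantile normalization, loess or the authors' value table, with 9 genes lower in each, or without scaling or with spike-in scaling, with 10 lower. The summed level was 1254 untreated and 2232 with NYT. As scaled, the NYT sum was 1.78 times the control sum, but 0.879 times without scaling, so its direction turned with the scaling. The part that these other cells had in the Gimap values was not tested.

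Genes for proteins that act beside GIMAP proteins in cell survival and autophagy were not lower. Of 17, none was at least 2-fold lower and 3 were at least 2-fold higher as scaled, with a median of 0.61, which turned to -0.41 without scaling, with none higher and 2 lower. Gsk3b, a kinase linked to Gimap5, stood at 1.29 (0.57 and 0.73 by other probes). Sqstm1, an autophagy receptor, stood at 1.23 (0.46 by another probe), Map1lc3a, which coats autophagosomes, was 2.14-fold higher, and Gabarap, of the same family of coats, stood at 0.90 (0.66 and 0.77 by other probes). Bcl2, which blocks cell death in lymphocytes, stood at -0.36, and Gabarapl2, the partner of Gimap6, at 0.39. Both were named after their values were seen. The NYT sum of the list was 1.65 times the control sum as scaled and 0.816 times without scaling. Every Gimap gene was further below 0 than the lowest gene of this list. Nothing is read from that contrast, since the Gimap genes were chosen on this same comparison.

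Transcription factors and homing receptors of lymphocytes were lower in 8 of 17 genes and higher in 1, with a median of -0.77 over 16 measured on both arrays. Gata3, a factor of T helper and innate lymphoid cells, differed by -4.09. Ets1, an ETS factor of lymphocytes, stood at -2.21 (-3.30 by another probe) and Klf2, which keeps T cells at rest, at -1.89. Tox, a factor of T cell development, was at least 10.8-fold lower. Without scaling 15 of 17 were lower.

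**Figure D3:**
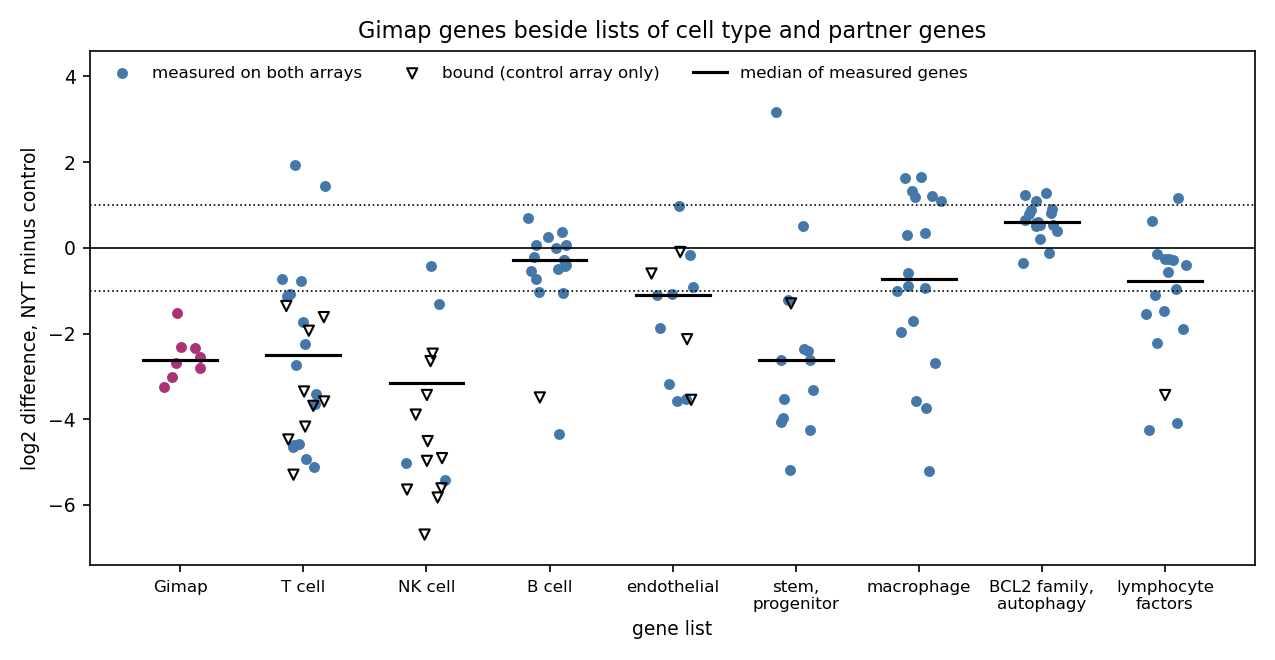
Log2 difference, NYT minus control, of each gene, with Gimap genes in purple and 8 marker and partner lists in blue; triangles are bounds for genes detected on the control array alone, black bars are medians of genes measured on both arrays, and dotted lines mark 2-fold. The 8 Gimap genes span -3.25 to -1.53, the 16 measured T cell genes -5.10 to 1.93, the 13 measured stem cell genes -5.18 to 3.18 and the 17 partner genes -0.36 to 1.29, and the medians of the B cell and partner lists are -0.28 and 0.61.

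The differences of the Gimap probes kept their direction under each way of scaling that was tried. Over 7 settings that change the value of a probe, the 70 values of the 10 probes lay between -4.43 and -1.30, all past 2-fold. The family's median was -3.63 without scaling and -2.04 with normexp background correction. Its median minus the median of all measured genes was -2.89 as scaled and -2.38 with normexp. Leaving out the scaling, spike-in scaling and scaling to the median of detected probes each move every value by the same amount by construction. The values under those settings are therefore not separate checks of each probe.

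**Figure D4:**
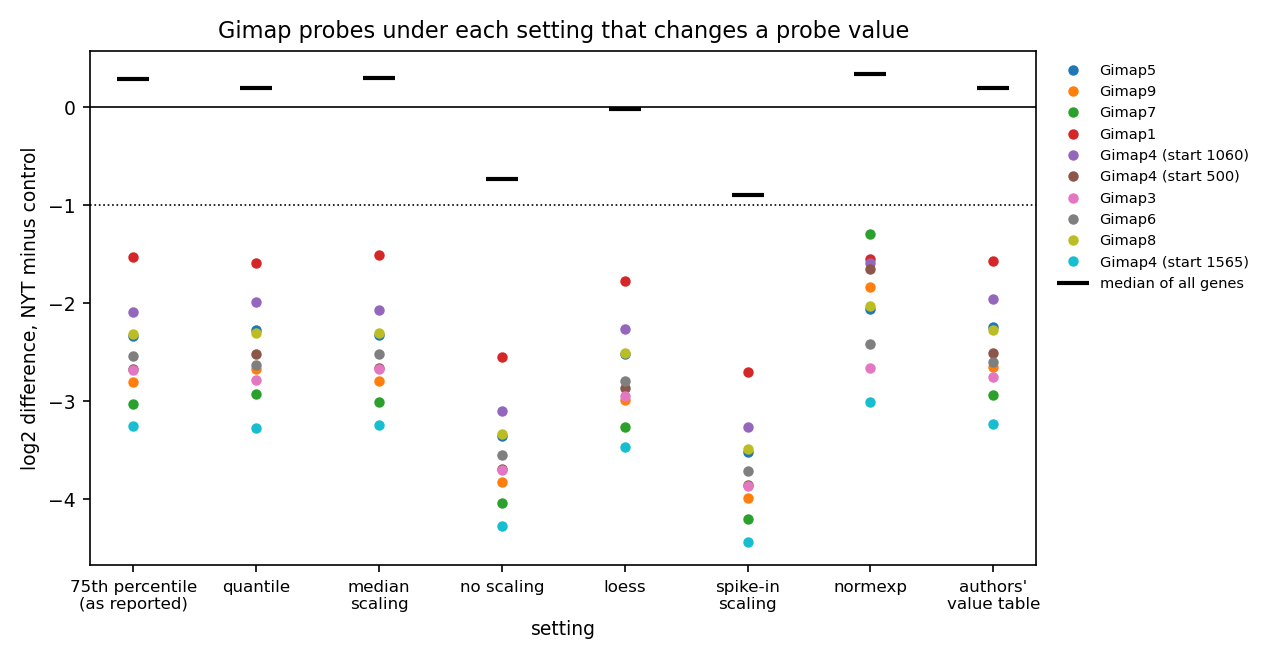
Log2 difference, NYT minus control, of the 10 Gimap probes (coloured points) under the reported scaling and 7 other settings, with black bars for the median of all measured genes and a dotted line at 2-fold lower. Points lie below -1 in each setting, and with normexp background correction the probes of Gimap7 and Gimap9 move to -1.30 and -1.83 and the Gimap4 probes at starts 500 and 1060 to -1.65 and -1.59.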

How the data were processed

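The data were 2 Agilent one-colour mouse arrays, 1 per group, with groups taken from the treatment in the labels. Spot intensity values deposited by the authors were made, per the file headers, with version 10.7.1.1 of Agilent's Feature Extraction software (the submitters' processing notes name 9.5.1.1), detrended per spot and not scaled between arrays. Flags and the p-value of each spot against background are those deposited by the authors; the p-value was not used. The authors' value table held the same arrays quantile normalized, on a linear intensity scale.

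Here, outlier spots were removed, log2 intensities were averaged per probe and scaled by subtracting the 75th percentile of the array. For each gene the brightest probe detected on both arrays was taken, where detected means that more than 50% of its spots were flagged well above background. Genes were named through RefSeq (GRCm38.p6) by accession (26761 probes), symbol (3814) or synonym (639), and 8215 probes kept the file's name. Python 3.11.15 and limma 3.58.1 (loess, normexp with an offset of 50) were used. Genes were counted at 2-fold, and the counting step was tested on simulated data. Named genes were all members, the genes within 500 kb and, per list, the 4 largest differences and 2 largest bounds; further list genes were chosen after their values were seen. Some genes that this rule picks are not reported here. Members and lists were chosen with earlier results of these data known. Having 1 array per group limits the precision. Likeness of patterns across samples was not measured, since 2 arrays give 1 difference per gene, and protein sequences were not used here.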

Additional observations from a re-analysis of the deposited data

Results flagged for a closer look

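A signal outside the main measurement was higher on the NYT array. The spike-in RNA E1A_r60_a107 stood 2.25 higher on the log2 scale before scaling, while the other 7 spike-ins well above background on both arrays lay between -0.12 and 0.24. It bears on the Gimap values only through spike-in scaling, which used the median of the 8 (0.16).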

How the results depend on the processing

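No paired analysis was possible because only 1 array stood for either treatment, which also left none to omit. Leaving out the scaling and spike-in scaling each move every value by a constant, and a 3-fold threshold can only keep or lower a count. The cause of the other changes listed here was not tested. All 8 Gimap genes stayed at least 2-fold lower under the 10 other settings, and 7 of 8 did at 3-fold. Their median of -2.61 was -3.63 without scaling, -3.79 with spike-in scaling, -2.87 after loess and -2.04 with normexp. All genes at least 2-fold lower numbered 2601 as reported, 7554 without scaling, 8997 with spike-in scaling and 1640 with normexp. B cell genes numbered 4, but 13 without scaling, 15 with spike-in scaling, and 2 with quantile normalization, normexp, the authors' value table or a 3-fold threshold. Endothelial genes numbered 8, and 5 with normexp. Partner genes numbered 0, and 2 without scaling or with spike-in scaling. Lymphocyte factors numbered 8, but 15 without scaling or with spike-in scaling and 5 at 3-fold. The probes of Gimap7 and Gimap9 and the Gimap4 probes at starts 500 and 1060 were dimmest on the NYT array, which limits their values. With normexp they stood at -1.30, -1.83, -1.65 and -1.59.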
